A study of Mus musculus with 12 samples.

Results

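The histone genes described here were the 61 protein-coding genes whose symbols begin with H1f, H2ac, H2bc, H3c or H4c followed by a number, of 23150 genes in the table of expression values. They comprised 8 genes for linker histone H1, 16 for H2A, 14 for H2B, 11 for H3 and 12 for H4. The family was chosen by symbol, and selected on 1 measured value, the low TPM of H2bc15 in OST after Sema3E, so the Sema3E and IgG libraries of OST are compared below as a description, with no test. H2ac14 carries a matching symbol, is annotated as an unprocessed pseudogene and is left out. Of the 61 genes, 51 lie on chromosome 13, 7 on chromosome 3, 2 on chromosome 6 and 1 on chromosome 15.

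Bulk RNA-seq was performed on granulosa cells (GCs) and ovarian stromal tissue (OST) of superovulated wild-type C57BL/6J mice, aged 21 to 23 days and primed with pregnant mare serum gonadotropin (PMSG, 5 IU). Ovaries were collected at 8 h after human chorionic gonadotropin (hCG, 5 IU), given 44 to 48 h after PMSG in place of the surge of luteinizing hormone. Recombinant Sema3E, a secreted semaphorin that binds the receptor Plexin-D1, was injected into 1 ovary and immunoglobulin G (IgG) into the contralateral ovary, each at 2 µg in 10 µL of PBS with BSA. The 4 groups were GCs after IgG, GCs after Sema3E, OST after IgG and OST after Sema3E, with 3 libraries each, and a replicate came from a single ovary. GCs were released from follicles by puncture and OST is what remained of the ovary, so neither is a pure cell type. Which replicates came from the same mouse is not stated in the labels or methods, so libraries were compared as if independent, and p-values leave out any sharing of a mouse or of an ovary.

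Histones package DNA. Pairs of H2A, H2B, H3 and H4 form the nucleosome core, and H1 binds the linker DNA between nucleosomes. Most histone genes lie in clusters and are transcribed mainly in S phase, when new DNA needs new nucleosomes. Their mRNAs have no introns and usually end in a stem-loop that is bound by SLBP, in place of a poly(A) tail. Linker genes such as H1f0 and H1f10 are expressed outside S phase with polyadenylated mRNAs, and H1f8 encodes the linker histone of the oocyte. In human differentiated cells, some clustered genes also give polyadenylated transcripts that run past the stem-loop. The sources used here do not state whether these libraries were made from polyadenylated RNA.

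The stem-loops of 6 genes with high levels are shown because they mark the transcripts that can end without a poly(A) tail. They were read from GENCODE M21 transcripts of GRCm38, with the 16-base stem-loop in capitals and its flanks in lower case.
H2ac19: ctaaaaaGGCTCTTTTCAGAGCCacccact
H2ac18: ctaaaaaGGCTCTTTTCAGAGCCacccact
H1f2: tccaaaaGGCTCTTTTCAGAGCCaccactc
H3c15: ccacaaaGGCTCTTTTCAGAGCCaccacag
H4c9: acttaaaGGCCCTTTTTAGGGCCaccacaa
H4c8: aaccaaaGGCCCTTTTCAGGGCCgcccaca
A stem-loop of this kind, with a perfect stem of 6 base pairs around a loop of 4 bases, was found in the transcripts of 38 of the 61 genes and of 130 of 21901 protein-coding genes (0.594%). H2ac19, H2ac18, H1f2 and H3c15 carried the form shared by 22 of the 38, whereas H4c8 carried a form shared by 6 H4 genes and H4c9 a form it shared only with H4c14 among the histone genes. The annotated transcript ended within 100 bases of the stem-loop in 21 genes and ran further in 17. H2ac19 and H2ac18 ended 35 bases after it, while H1f2, H3c15 and H4c9 ran on for 840, 377 and 330 bases. H1f0, H1f10 and H1f8 were among the 23 genes with no such stem-loop in the annotated transcript, as were H2bc21, H2bc4 and H2bc15. No match says only that these letters are not in the annotated transcript.

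Promoters are shown for the gene named in the rule and for 3 genes that were higher in OST than in GCs after Sema3E. Each runs from 250 bases before to 50 after the RefSeq start (GRCm38.p6), 5′ to 3′ in the direction of the gene, with 3 motifs in capitals on either strand: the CCAAT box, the TATA box in the form TATAAA, and the octamer ATTTGCAT.
H2bc15, chr13:21753826-21754125, plus strand: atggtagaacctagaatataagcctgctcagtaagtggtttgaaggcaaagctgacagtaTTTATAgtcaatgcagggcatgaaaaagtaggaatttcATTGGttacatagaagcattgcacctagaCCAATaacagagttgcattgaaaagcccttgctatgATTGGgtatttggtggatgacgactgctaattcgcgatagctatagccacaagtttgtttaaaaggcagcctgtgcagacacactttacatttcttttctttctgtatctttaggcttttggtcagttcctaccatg
H2ac18, chr3:96245247-96245546, plus strand: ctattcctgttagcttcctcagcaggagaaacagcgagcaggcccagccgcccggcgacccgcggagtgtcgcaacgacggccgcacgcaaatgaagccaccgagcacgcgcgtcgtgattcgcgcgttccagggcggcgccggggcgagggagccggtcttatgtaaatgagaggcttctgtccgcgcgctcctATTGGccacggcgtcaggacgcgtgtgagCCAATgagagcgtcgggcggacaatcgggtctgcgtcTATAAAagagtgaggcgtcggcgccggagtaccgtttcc
H2ac19, chr3:96240325-96240624, minus strand: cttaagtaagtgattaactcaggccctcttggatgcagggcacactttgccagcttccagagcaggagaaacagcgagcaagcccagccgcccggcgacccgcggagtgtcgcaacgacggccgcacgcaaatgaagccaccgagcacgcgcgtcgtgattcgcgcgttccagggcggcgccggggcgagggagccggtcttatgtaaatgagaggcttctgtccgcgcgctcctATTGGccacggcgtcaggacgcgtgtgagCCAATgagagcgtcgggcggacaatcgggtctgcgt
H4c9, chr13:22041313-22041612, minus strand: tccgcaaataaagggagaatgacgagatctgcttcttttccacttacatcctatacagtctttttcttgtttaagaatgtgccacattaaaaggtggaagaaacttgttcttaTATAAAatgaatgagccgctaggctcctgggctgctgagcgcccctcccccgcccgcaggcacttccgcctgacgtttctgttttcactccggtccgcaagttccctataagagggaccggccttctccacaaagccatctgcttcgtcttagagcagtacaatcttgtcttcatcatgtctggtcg
CCAAT, on either strand, was in 45 of the 55 histone promoters that matched the RefSeq table (81.8%) and in 37.9% of all 27025 promoters. TATAAA, on either strand, was in 31 of 55 (56.4%), against 14.2% of all promoters, and the octamer ATTTGCAT, on either strand, was in 10 of 55 (18.2%), against 1.75%. All 16 H2A and 11 H2B promoters held CCAAT, against 3 of 11 H4 promoters, and H4c9 had none. The octamer was found in 6 H2A and 4 H2B promoters and in none of the H1, H3 or H4 promoters. Windows of neighbours transcribed away from each other can overlap, as for H2ac8 and H2bc8. The same site is then counted for both genes, so the 55 windows are not independent. The windows of H2ac18 and H2ac19, which lie on opposite strands, shared an unbroken run of 219 bases. That run reached the end of the H2ac19 window, and the TATAAA of H2ac18 lies just past it. The H2ac19 window therefore cannot show whether that gene has the same TATAAA. H2bc15 is transcribed away from H2ac15, and their starts in GENCODE M21 are 296 bases apart. These matches describe letters, not bound sites.

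The levels are TPM, transcripts scaled for gene length and to a fixed total in each library, as deposited by the authors. Multiplied by the gene length in the same table, the TPM of each library came out in whole multiples of 1 step. With that step taken as 1 read (or read pair), 80.5% to 82.1% of all genes with over 0.01 and under 1000 reads had a whole number of reads, within a tolerance of 0.01. Depth on this scale ran from about 21990000 to 41160000 reads per library. Of the histone genes within the same range of reads in a library, only 31.6% to 59.2% came out whole. Without that range, 46 of the 61 were not whole in at least 1 library. Copies were genes at least 95% identical over 80% of the histone gene's own transcript. Of the 27 histone genes with such a copy, 24 were not whole, as were 22 of the other 34. The other 34 were not all free of near-identical sequence: H3c15 and H2bc4, among them, were copies of H3c13 and H2bc12. Values of genes that were not whole may rest on how reads were divided among genes, a step that no source used here describes. The origin of the fractions was not tested. The gene length was the genomic span, introns included, so TPM understates genes with introns relative to the others: by exon length, H1f8 ranked 2 of the 61 and H2bc4 ranked 6, against 5 and 9 in the deposited TPM.

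Only a few histone genes carried most of the signal. All 61 together took 0.0282% to 0.0439% of the reads of a library, and 10 genes held 94.4% to 96.6% of those. Only these 10 had a mean of 50 reads or more per library, namely H1f0, H1f8, H1f10, H1f2, H2bc4, H2ac19, H2bc21, H4c9, H3c15 and H2ac18. At the other end, 48 genes had a mean under 20 reads and 39 under 10, so that their differences rest on a handful of reads.

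**Figure D1:**
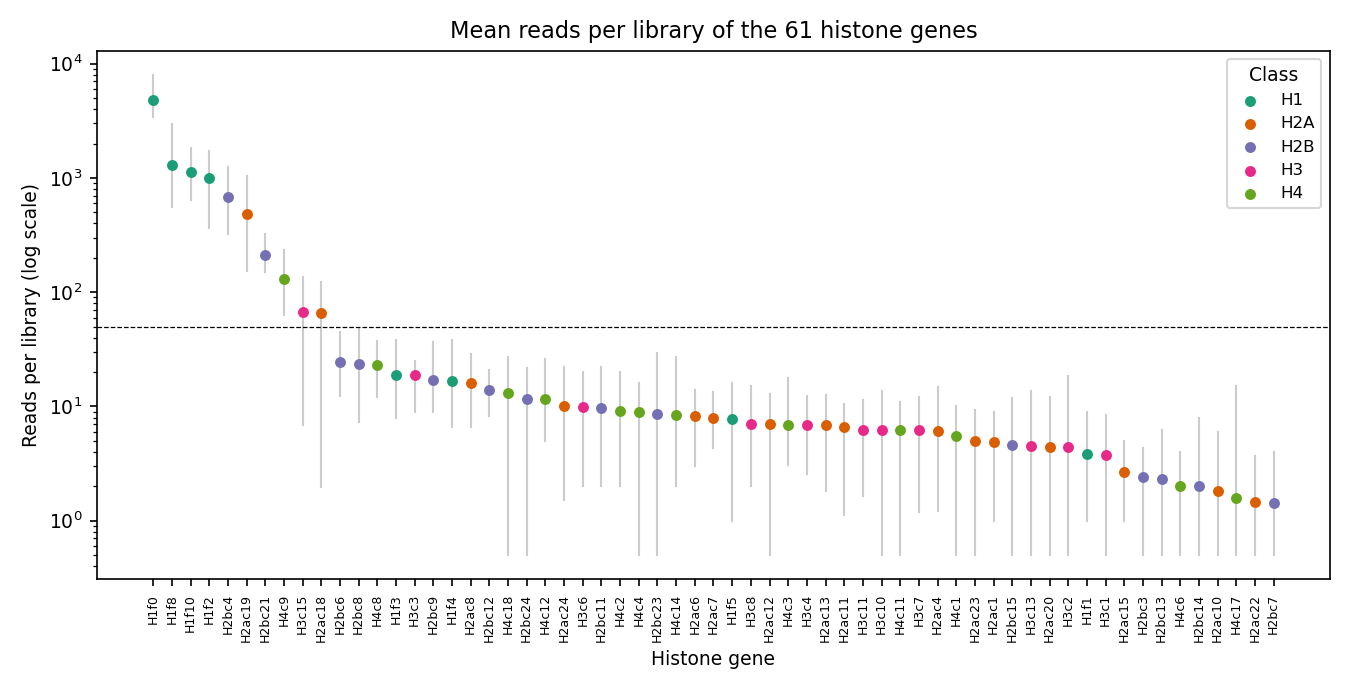
Reads per library of each of the 61 histone genes on a log scale, coloured by class, where points are means over 12 libraries and grey lines run from the lowest to the highest library (values under 0.5 are drawn at 0.5). The dashed line marks 50 reads, with 10 genes above it and 48 of the others under 20.

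Of the labelled tissues, OST had the markers of fibroblasts at a summed 697 to 1101 TPM over 4 genes, against 23.9 to 76.3 TPM in GCs, and mural cell markers at 222 to 349 TPM against 4.75 to 11.5 TPM. The 7 granulosa markers summed to 5691 to 12380 TPM in GCs. In OST they summed to 12480 TPM in IgG replicate 3 and to 5514 to 7255 TPM in the other 5 libraries. Most of each sum was 1 gene, Inha, at 4465 to 8418 TPM in OST and 5027 to 11238.5 TPM in GCs. The 7 genes did not move together. Amh was higher in every OST library than in any GC library, and Inhba was lower. Fshr and Cyp19a1 reached at most 2.97 and 2.70 TPM in any library. Globin genes held between 4.54% and 19.6% of all TPM in GC libraries and between 0.261% and 0.637% in OST libraries, which lowers the TPM of every other gene in GCs. OST IgG replicate 3 stood apart. Its 5 luteinizing markers, among them Star and Lhcgr, summed to 14.9 TPM, against 1227 to 1911 TPM in the other 5 OST libraries, and its 7 oocyte markers to 1277 TPM against 269 to 447 TPM. GC IgG replicate 1 had 2341 TPM of 5 macrophage and monocyte markers, against 141 to 508 TPM in the other GC libraries. Histone results that rest on OST IgG replicate 3 are given with and without it. In bulk tissue, fewer cells of a type and less RNA per cell cannot be told apart.

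Summed over the 61 genes, histone mRNA was at 1320 ± 147 TPM in GCs after IgG, 1348 ± 161 TPM in GCs after Sema3E, 1843 ± 115 TPM in OST after IgG and 1995 ± 324 TPM in OST after Sema3E (SD, n = 3 each). With globin and mitochondrial genes left out of the total, the groups came to 1957, 2020, 2250 and 2446 TPM, so that the gap between tissues was narrower. The parts of globin and of mitochondrial genes in this shift were not separated. Linker genes made up 55.1% to 76.9% of the histone TPM of a library, H2A genes 10.3% to 29.8%, H4 genes 4.47% to 7.62%, H2B genes 4.04% to 5.31% and H3 genes 2.44% to 3.61%. The H2A genes spread the most between libraries. They summed to 223, 216 and 185 TPM in GCs after IgG, to 183, 158 and 169 TPM in GCs after Sema3E, to 535, 345 and 187 TPM in OST after IgG and to 459, 543 and 649 TPM in OST after Sema3E. OST IgG replicate 3 thus lay within the range of the GC libraries, and the other 5 OST libraries all lay above it.

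**Figure D2:**
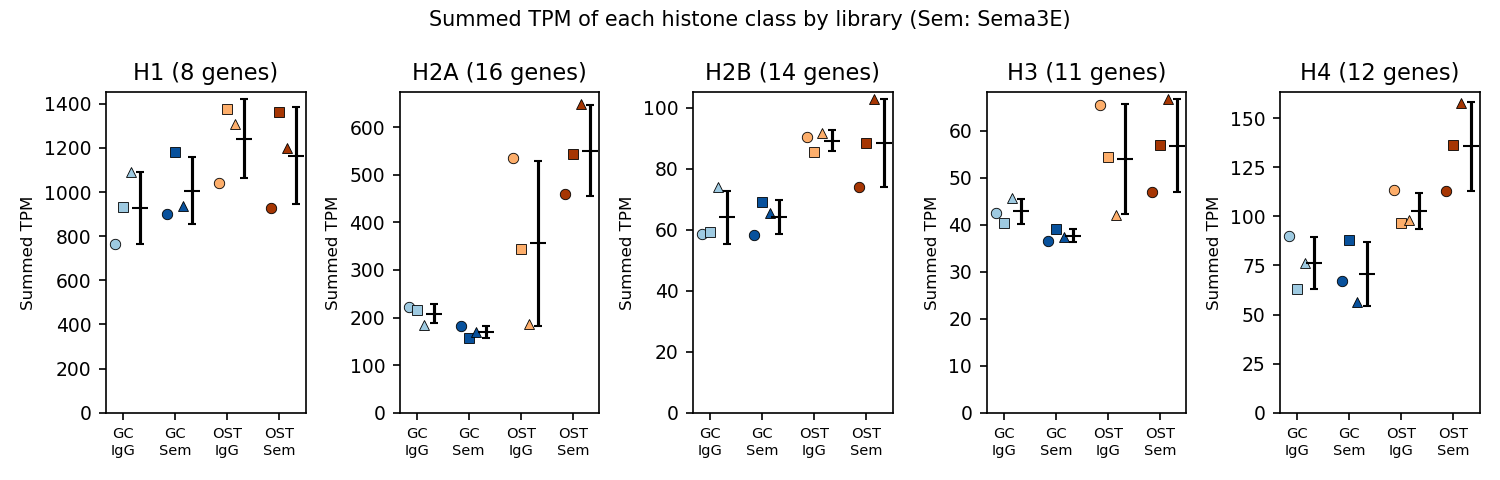
Summed TPM of each histone class by library, with circles, squares and triangles for replicates 1, 2 and 3 and black marks for the mean and SD (n = 3). H2A genes reached 459 to 649 TPM in OST after Sema3E and 158 to 223 TPM in the GC libraries, with OST IgG replicate 3 at 187 TPM.

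H1f0, the linker histone that accumulates in cells that have stopped dividing, had the highest level of all. It was at 433, 569 and 603 TPM in GCs after IgG, 497, 649 and 511 TPM in GCs after Sema3E, 598, 782 and 622 TPM in OST after IgG, and 513, 771 and 725 TPM in OST after Sema3E. The 4 groups overlapped. H1f10, a divergent linker histone found in many tissues, was at 144, 179.8 and 255 TPM and 205, 272 and 227 TPM in GCs, and at 219.8, 303 and 430 TPM and 209.96, 270.3 and 186 TPM in OST (IgG then Sema3E). The highest of these was OST IgG replicate 3.

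H1f2, a clustered linker gene with a stem-loop, was at 124, 124 and 202 TPM and 126, 191 and 119.8 TPM in GCs, and at 167, 223 and 74.6 TPM and 131, 254 and 242 TPM in OST (IgG then Sema3E). Here OST IgG replicate 3 was the lowest of the 12 libraries. H1f8, the oocyte linker histone, was at 56.1, 53.5 and 24.5 TPM in GCs after IgG and 64.9, 61.6 and 73.6 TPM after Sema3E, with no overlap. In OST it was at 49.1, 56.9 and 177 TPM after IgG and 68.6, 57.8 and 39.9 TPM after Sema3E. The other 6 oocyte markers, such as Zp3 and Gdf9, moved broadly with it within each tissue. They summed to 137 to 238 TPM in GCs after IgG and 287 to 310 TPM in GCs after Sema3E. In OST they summed to 1100 TPM in IgG replicate 3, against 229 to 390 TPM in the other libraries. Between tissues they did not move with it. In IgG replicate 1, H1f8 was at 56.1 TPM in GCs and 49.1 TPM in OST, while the other 6 were at 238 and 344 TPM. Their part in the H1f8 levels was not tested. None of H1f0, H1f10, H1f2 and H1f8 passed an adjusted p under 0.05 in the 3 comparisons tested with limma.

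**Figure D3:**
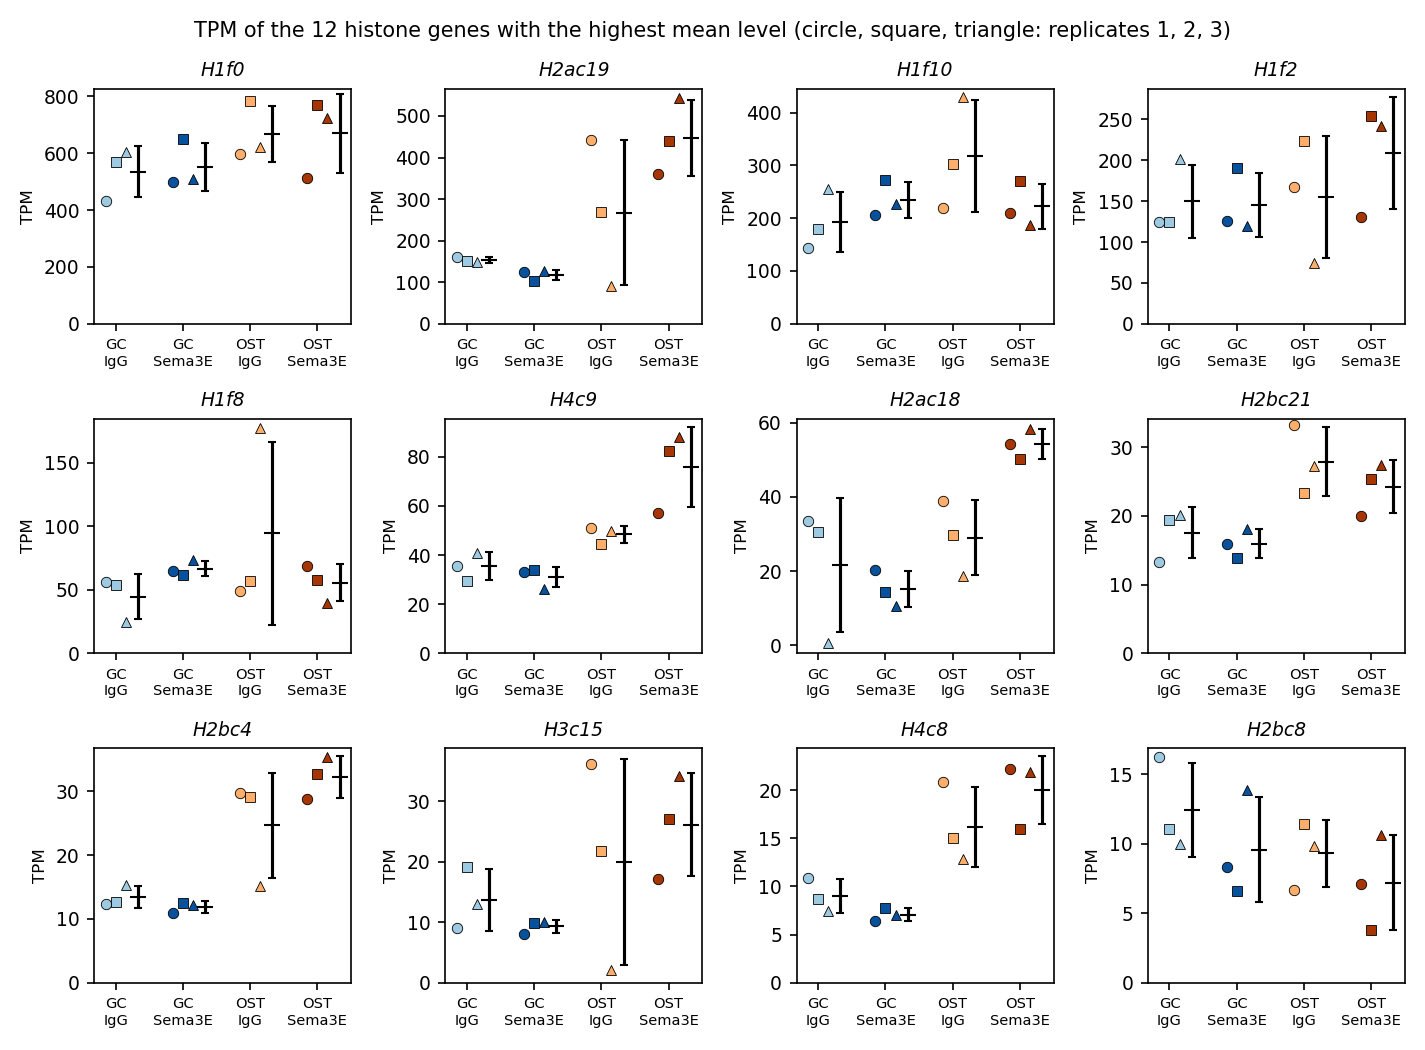
TPM of the 12 histone genes with the highest mean level, by library, with circles, squares and triangles for replicates 1, 2 and 3 and black marks for the mean and SD (n = 3). H2ac19, H2bc4 and H3c15 were lowest among OST libraries in OST IgG replicate 3, which was highest for H1f8 and H1f10.

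Of the core histone genes, H2ac19 and H2ac18 encode H2A from neighbouring loci on chromosome 3 (GRCm38, 96239749 to 96240276 and 96245497 to 96246082), and their transcripts matched at 100% identity. H2ac19 was at 160.3, 151 and 148 TPM in GCs after IgG and at 124, 104 and 126 TPM in GCs after Sema3E. In OST it was at 442, 269 and 91.1 TPM after IgG and at 359.8, 439 and 542 TPM after Sema3E. Apart from OST IgG replicate 3, every OST library was above every GC library.

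H2ac18 was at 33.6, 30.4 and 0.781 TPM and 20.4, 14.3 and 10.7 TPM in GCs, and at 38.8, 29.7 and 18.6 TPM and 54.3, 50.3 and 58.2 TPM in OST (IgG then Sema3E). The value of 0.781 TPM stood for 1.96 reads, in a library with 337 reads at H2ac19. H2ac18 held 8.65% to 18.9% of the reads of the pair in the other 11 libraries and 0.579% in that one. Since both genes were not whole in all 12 libraries, the pair is better read as a sum, which was 149 to 194 TPM and 118 to 144 TPM in GCs, and 480.5, 299 and 109.8 TPM and 414, 489 and 600.5 TPM in OST (IgG then Sema3E).

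After Sema3E, 8 of the 58 histone genes tested were higher in OST than in GCs and 2 were lower at an adjusted p under 0.05 in limma, H2bc15 being left out. Of all 15698 genes tested, 28.2% were higher and 17.0% lower, against 13.8% and 3.45% of the histone genes. Most histone genes had few reads, which limits what can be called. Of the 10 with a mean of 50 reads or more, 6 were higher and 0 lower, against 2 higher and 2 lower among the rest. The share of all genes called at a like depth was not computed, so this split is not read as a trait of histone genes. With globin and mitochondrial genes left out, the split over all genes turned from 4425 higher and 2667 lower to 2996 higher and 6071 lower, and the median of all genes moved to -0.19. The median log2 difference was 0.27 over the histone genes and 0.05 over all genes as deposited. That of the histone genes went to 0.05 with globin and mitochondrial genes left out, and to 0.12, 0.06 and 0.15 without GC Sema3E replicate 1, GC Sema3E replicate 3 or OST Sema3E replicate 3. H2ac19 rose from 118 ± 12.2 TPM in GCs to 447 ± 91.5 TPM in OST (SD, n = 3 each), which is 1.90 on the log2 scale (SE, the standard error, 0.16, limma adjusted p = 0.000204). H2ac18 followed at 1.82 (SE 0.21, limma adjusted p = 0.000837), and the sum of the pair at a log2 ratio of means of 1.92.

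Core genes of the other classes rose with them. H2bc4, an H2B gene, was at 10.9, 12.6 and 12.2 TPM in GCs and 28.8, 32.6 and 35.3 TPM in OST after Sema3E, a log2 difference of 1.37 (SE 0.10, limma adjusted p = 0.000121). H4c8, an H4 gene, was at 6.45, 7.74 and 7.06 TPM and 22.2, 15.97 and 21.9 TPM, a log2 difference of 1.37 (SE 0.14, limma adjusted p = 0.000488), although these stood for only 13 to 37.3 reads. H3c15, which encodes H3.2, was at 8.07, 9.82 and 10.1 TPM and 17.1, 27.1 and 34.1 TPM (log2 difference 1.35, SE 0.24, limma adjusted p = 0.00481). In H2bc4, H4c8 and H3c15 the lowest OST library was above the highest GC library. Reads of H2bc4 and H3c15 were fractional in all 12 libraries and those of H4c8 in 6. These values too may rest on how reads were divided among genes.

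H4c9, the most abundant H4 gene, was at 33.02, 33.9 and 26.4 TPM in GCs and 57.1, 82.6 and 87.9 TPM in OST after Sema3E (log2 difference 1.24, SE 0.18, limma adjusted p = 0.00223). H2bc21, another H2B gene, was at 15.9, 13.9 and 18.2 TPM and 19.98, 25.4 and 27.4 TPM (log2 difference 0.57, SE 0.14, limma adjusted p = 0.0188), and did not pass with globin and mitochondrial genes left out. H4c18, which the rule for named genes did not pick and was added after its values were seen, rose by a log2 difference of 0.80 at 5.32 to 7.05 TPM and 8.64 to 14.7 TPM. Of the 8 genes that rose, 6 had a mean of 50 reads or more.

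Both genes that fell had few reads. H3c10, an H3 gene with 8 close copies, was at 6.24, 4.30 and 3.13 TPM in GCs and at 1.63, 2.26 and under 1 TPM in OST (log2 difference -1.40, SE 0.45, limma adjusted p = 0.0437). H3c11, 1 of those copies, went the other way, at 0.937, 5.23 and 3.66 TPM in GCs and 5.70, 9.06 and 5.41 TPM in OST. Reads of H3c10 were fractional in 9 libraries and those of H3c11 in 12, so the fall of H3c10 alone is not read as less H3 mRNA. H2ac1, known as an H2A gene of the testis, was at 4.18, 4.10 and 5.46 TPM and 2.38, 3.35 and 3.53 TPM (log2 difference -0.45, SE 0.15, limma adjusted p = 0.0498), on 3 to 9 reads per library. H2bc24 and H1f4, next in order of p, had log2 differences of -0.73 and -0.39 and missed the threshold (limma adjusted p = 0.0514 and 0.0813). H2bc24 was at 0.9004, 1.308 and 1.092 TPM in GCs after Sema3E and under 1 TPM in every OST library after Sema3E. It thus passed the filter of 1 TPM only through GCs, the group in which it was higher, and its p is not read as near evidence of a fall. H2ac19, H4c9, H2bc4 and H4c8 passed under all 15 other settings that were run, and H2ac18 and H3c15 under 14 of 15, the exception being a fit on all 12 libraries. H4c18 passed under 12 of 15, with an adjusted p of up to 0.496 in limma, and not without GC Sema3E replicate 3. H2bc21 passed under 10 of 15, and not without GC Sema3E replicate 1 or 2 or OST Sema3E replicate 2 or 3. H2ac1 passed under 4 and H3c10 under 8 of 15.

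The 7 histone genes on chromosome 3 lie between 96220361 and 96269141 (GRCm38). Of these, 4 rose (H2bc21, H3c15, H2ac19 and H2ac18), against 4 of 48 tested on chromosome 13 and 28.2% of all genes. Those on chromosome 3 that rose were also its only genes with a mean of 50 reads or more. On chromosome 13 only H1f2, H4c9 and H2bc4 had as many reads, and H4c9 and H2bc4 rose. The median log2 difference was 0.57 on chromosome 3 and 0.21 on chromosome 13. H2ac20, the divergent neighbour of H2bc21, had a log2 difference of -0.42 (limma adjusted p = 0.472) on a mean of 4.42 reads per library. These are counts over genes that may share reads and that share neighbourhoods, and no test was made of them.

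**Figure D4:**
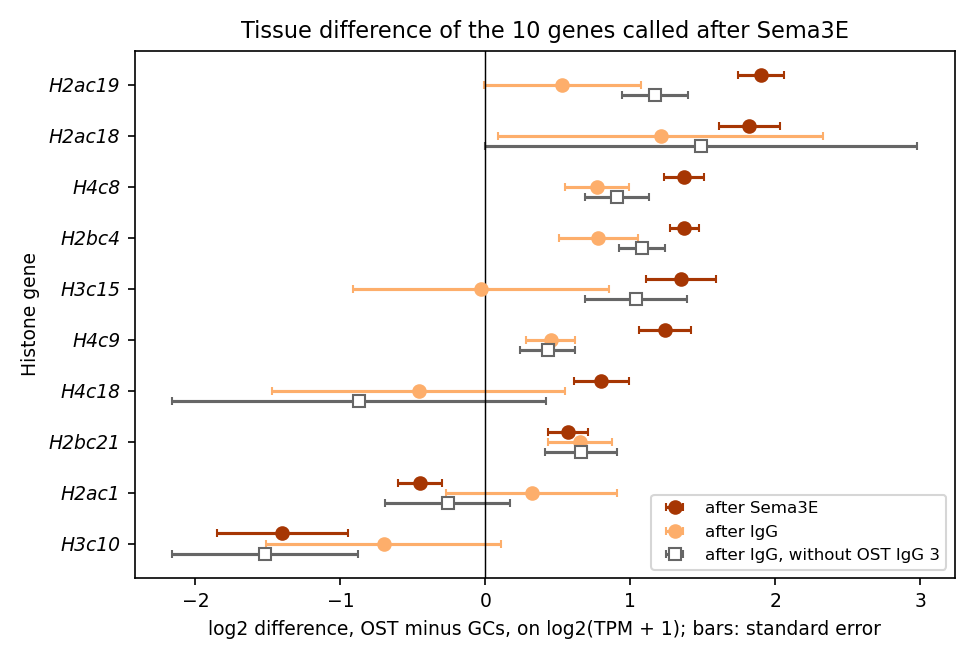
log2 difference between OST and GCs on the log2(TPM + 1) scale for the 10 histone genes called after Sema3E, with bars for the standard error, shown after Sema3E, after IgG with all 6 libraries, and after IgG without OST IgG replicate 3. H2ac19 moved from 0.53 to 1.17 and H3c15 from -0.03 to 1.04 when that library was left out.

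In the control ovaries the same tissue comparison gave 2 histone genes higher and 1 lower in OST of 60 tested, at an adjusted p under 0.05 in limma, against 8.34% and 0.301% of all 16627 genes. All 3 had a mean under 50 reads. H2ac8, an H2A gene, was at 4.35, 3.39 and 3.52 TPM in GCs and 6.49, 8.29 and 8.82 TPM in OST (log2 difference 0.90, SE 0.18, limma adjusted p = 0.0309). H2ac11, another H2A gene, was at 0.491, 2.11 and 1.73 TPM and 5.23, 4.33 and 6.69 TPM (log2 difference 1.44, SE 0.32, limma adjusted p = 0.0399), and has 10 close copies. H3c13, a second H3.2 gene, was at 5.91, 3.87 and 3.98 TPM and 1.90, 0.675 and 0.0894 TPM (log2 difference -1.66, SE 0.38, limma adjusted p = 0.0424), but its sum with its copy H3c15 overlapped, at 14.9 to 22.99 TPM and 2.23 to 38.0 TPM.

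Scaling weighed on this comparison. All genes tested had a median log2 difference of 0.30 between OST and GCs after IgG, which went to 0.03 when libraries were scaled by median ratios. The histone genes had a median of 0.41, which went to 0.17, and none of the 3 calls held under that scaling or with globin and mitochondrial genes left out. Over all genes, 1387 were called higher and 50 lower as deposited, and 755 higher and 160 lower under median ratios. Relative to the shift of all genes, H2ac8 and H2ac11 were higher by less than the differences given above and H3c13 was lower by more. Of the next genes in order of p, H4c8 and H2bc21 had log2 differences of 0.77 and 0.65 (limma adjusted p = 0.0817 and 0.108), and H2bc9, H2bc8 and H4c2 had -0.53, -0.38 and -0.67 (limma adjusted p = 0.229, 0.332 and 0.345).

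Without OST IgG replicate 3, 5 histone genes were called after IgG, against 12.1% of all genes tested. H2bc4, which was at 12.3, 12.6 and 15.3 TPM in GCs and 29.7, 29.0 and 15.2 TPM in OST after IgG, then had a log2 difference of 1.08 (limma adjusted p = 0.00937), against 0.78 with all 6 libraries (0.119). H2ac19 went from 0.53 (limma adjusted p = 0.506) to 1.17 (0.0267), and H4c8 from 0.77 to 0.91 (0.0456). H2ac8 and H3c13 still passed (0.034 and 0.0343) and H2ac11 did not (0.0551). H3c15 was at 9.03, 19.1 and 12.96 TPM in GCs and 36.1, 21.8 and 2.14 TPM in OST after IgG, and its log2 difference went from -0.03 to 1.04, which did not pass (0.114). Whether the tissue difference itself varied with treatment was not tested, since it shares libraries with the comparison that the rule used.

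In GCs, Sema3E and IgG were compared to ask whether the injected protein altered histone mRNA in the cells that line the follicle. None of the 58 histone genes tested passed an adjusted p under 0.05 in limma, against 0.0661% of all 15128 genes. At an unadjusted p under 0.05, 5 were higher and 4 lower after Sema3E (8.62% and 6.90%), against 4.03% and 1.08% of all genes. Groups did not overlap in 5 genes that were higher and 3 that were lower, where 8.99% and 2.05% of all genes did so. H4c17, among the 5, was close to 0 in most of these libraries. The median log2 difference was 0.03 over the histone genes and 0.06 over all genes. The 3 genes not tested, H2ac22, H2bc23 and H2bc6, had no GC library above 1 TPM.

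Of these genes, H1f8, given above, and H2ac19 had the most reads. H2ac19 was at 153 ± 6.22 TPM after IgG and 118 ± 12.2 TPM after Sema3E (SD, n = 3 each), with a log2 difference of -0.38 (SE 0.13, limma adjusted p = 0.936). Summed with H2ac18, the pair was at 175 ± 23.01 TPM and 133 ± 13.4 TPM, also with no overlap. H3c13 had the most negative value, at 5.91, 3.87 and 3.98 TPM after IgG and 2.67, 0.837 and close to 0 TPM after Sema3E (log2 difference -1.55, SE 0.47, limma adjusted p = 0.901), and with H3c15 the pair went from 18.3 ± 4.19 TPM to 10.5 ± 0.364 TPM. The other 2 lower genes, H2bc9 and H4c3, had log2 differences of -0.66 and -0.67.

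Higher values after Sema3E were those of H4c11, at 1.63, 0 and 0 TPM after IgG and 2.41, 2.70 and 2.14 TPM after Sema3E (log2 difference 1.3, SE 0.38, limma adjusted p = 0.854), and of H2ac1, at 1.62, 3.50 and 1.19 TPM and 4.18, 4.10 and 5.46 TPM (log2 difference 0.91, SE 0.27, limma adjusted p = 0.854). H2bc13 and H2ac11 had log2 differences of 1.19 and 0.90. All of these rested on under 10 reads in every GC library. H2bc8, an H2B gene with a stem-loop, was at 16.3, 11.0 and 9.95 TPM and 8.29, 6.61 and 13.8 TPM, with overlap.

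In OST, the same comparison is given as values only. H2bc15, the gene named in the rule, was at 5.82, 1.58 and 9.95 TPM after IgG and 1.004, 0 and 0.929 TPM after Sema3E, so the groups did not overlap. It lies on chromosome 13 (GRCm38, 21754123 to 21754503) and had 8.15, 3 and 11.95 reads after IgG and 1.24, 0 and 1.29 reads after Sema3E. In GCs it had 5, 0 and 9 reads after IgG and 1.23, 9.91 and 4 reads after Sema3E. For the count of 0, the 95% Poisson interval reached 3.69 reads, or 3.16 TPM, and such intervals cover counting error only. Some reads were fractions, and H2bc15 has 12 close copies among all genes. The log2 difference was -1.88 (standard error 0.57), and -1.42 without OST IgG replicate 3.

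**Figure D5:**
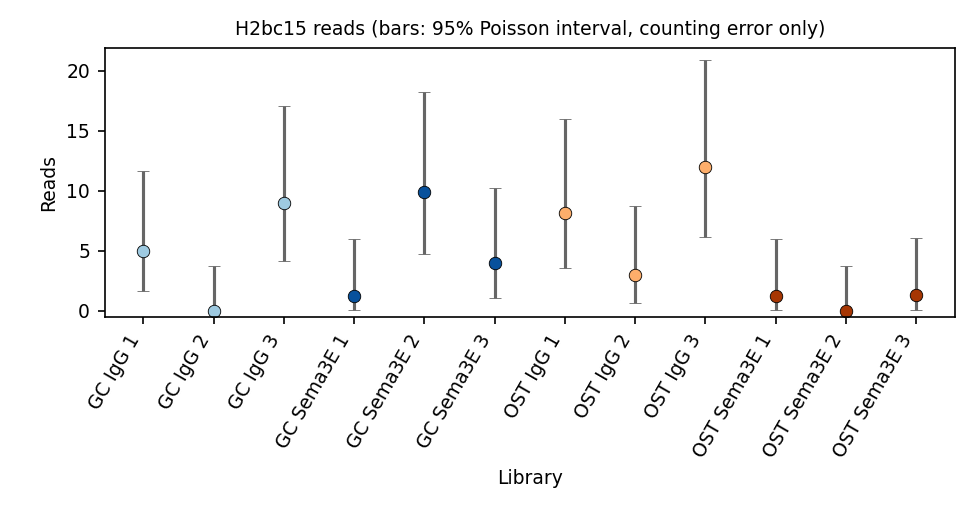
Reads of H2bc15 in each of the 12 libraries, with bars for the 95% Poisson interval, which covers counting error only. OST libraries had 3 to 11.95 reads after IgG and 0 to 1.29 reads after Sema3E, and GC libraries 0 to 9.91 reads.

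Beside H2bc15, the groups of OST did not overlap in 2 other lower genes and 3 higher ones, where 29.9% of all 16273 genes were lower and 3.67% higher without overlap. The lower ones were H2ac10 and H3c8 and the higher ones H2ac18, H4c9 and H3c11. H2ac10, H3c8 and H3c11 were named after their values were seen. H4c9 was at 51.2, 44.6 and 49.7 TPM after IgG and 57.1, 82.6 and 87.9 TPM after Sema3E, a log2 difference of 0.61 (standard error 0.18) and of 0.63 without OST IgG replicate 3. H2ac18 had a log2 difference of 0.94, and of 0.66 without that library. The neighbour of H2bc15 on the opposite strand, H2ac15, was at 2.77, 1.02 and 2.42 TPM after IgG and 3.94, 0.830 and 2.80 TPM after Sema3E, with overlap.

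The median log2 difference in OST was -0.08 over the 60 histone genes tested and -0.18 over all genes, and these went to 0.05 and -0.02 under scaling by median ratios. OST IgG replicate 3 set several of the larger values. H2ac19 had a log2 difference of 0.99, and of 0.35 without that library, H3c15 went from 0.92 to -0.15, H1f2 from 0.51 to 0.05 and H1f8 from -0.54 to 0.03. H2bc6, the 1 gene not tested in OST, was at 0.152 to 0.243 TPM.

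Genes around the histones were counted in the same fits, and scaling moved some of these lists. Over all genes, 28.2% were called higher and 17.0% lower in OST than in GCs after Sema3E, and 18.1% and 36.7% with globin and mitochondrial genes left out. Of 9 variant histones, which replace the standard ones outside S phase, 3 (33.3%) were higher in OST than in GCs after Sema3E and 2 (22.2%) lower, at an adjusted p under 0.05 in limma. H2aj was higher at a log2 difference of 0.76 (limma adjusted p = 0.000441) and Macroh2a2, known from silent chromatin, at 0.65 (0.000637). H2az1, a variant found at promoters, fell from 2450 to 1610 TPM (log2 difference -0.61, limma adjusted p = 0.00309) and the centromere variant Cenpa had -0.52 (0.0021). All 4 kept their call under median ratios and with globin and mitochondrial genes left out. After IgG, Macroh2a2 was higher at 1.05 (0.0198), as the 1 variant gene called, and H2az1 had -0.70 (0.0745).

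Of 19 tested genes for DNA replication, the phase in which clustered histone genes are transcribed, 7 (36.8%) were higher in OST than in GCs after Sema3E and 1 (5.26%) lower, against 28.2% and 17.0% of all genes, but 1 was higher and 4 lower with globin and mitochondrial genes left out, where calls over all genes turned in the same direction. Mcm6, part of the replicative helicase, was higher in both settings, at 0.58 as deposited (limma adjusted p = 0.00163), and Rrm2, a ribonucleotide reductase subunit, was lower at -0.57 (0.00215). After IgG, Mcm6 was the 1 gene called, at 1.22 (0.0329), and it was not called under either scaling. Of 10 genes of mitosis, none was higher and 6 were lower in OST after Sema3E, against 28.2% and 17.0% of all genes, among them Mki67 (-0.65, limma adjusted p = 0.00275) and Top2a (-0.64, 0.00288), and these 6 kept their call under both scalings. After IgG no mitosis gene was called, and Birc5 and Ccna2 had 0.43 and 0.34, which went to 0.17 and 0.11 without OST IgG replicate 3.

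Of 15 genes for transcription and 3′ processing of histone mRNA, 1 (6.67%) was higher and 5 (33.3%) were lower in OST than in GCs after Sema3E, against 28.2% and 17.0% of all genes. With globin and mitochondrial genes left out, 12 were lower, where 36.7% of all genes were. Casp8ap2 and Npat, which act in the nuclear body where these genes are transcribed, were lower at -0.60 and -0.49 (limma adjusted p = 0.00944 and 0.0168), and Cpsf2, a subunit of the cleavage complex, at -0.41 (0.0167). Slbp, which binds the stem-loop and was not picked by the rule for named genes, had -0.18 (0.0977). After IgG no gene of this list was called, and Cstf2 and Zfp473 had 0.60 and 0.74, which went to 0.44 and 0.41 without OST IgG replicate 3. Of 15 chaperone and deposition genes, 3 were higher and 4 lower after Sema3E, against 28.2% and 17.0% of all genes, and 2 were higher after IgG, where 8.34% of all genes were. With globin and mitochondrial genes left out, 2 were higher and 9 lower after Sema3E. Npm1 and Ipo4, a chaperone and an import factor of histones, were higher after Sema3E at 0.76 and 0.60 (limma adjusted p = 0.000159 and 0.00126) and after IgG at 1.08 and 0.72 (0.0444 and 0.046), the latter pair not under either scaling.

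In GCs, no gene of the 5 lists passed an adjusted p under 0.05 for Sema3E in limma, nor an unadjusted p under 0.05. The smallest p of each list belonged to genes with small differences on the log2 scale, such as Atrx (0.25), Daxx (-0.24), Casp8ap2 (0.26), Macroh2a2 (0.27), Mcm6 (0.21) and Mki67 (0.17).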

How the data were processed

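Libraries of GCs and OST, 12 in 4 groups of 3, were taken as labelled. The authors aligned reads to GRCm38 with HISAT2 (version 2.0.5), obtained gene counts from featureCounts (version 1.5.0-p3) and deposited TPM. The sources used here do not say how reads were divided among near-identical genes. The lowest TPM above 0 is 8.44e-46, and 46 of 61 histone genes have fractional reads, which whole-read counting does not give. Reads per gene were recovered as TPM times gene length over the step of the library and were used for depth and counting error only, while tests used TPM.

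Genes above 1 TPM in at least 1 of the 6 libraries of a comparison were fitted with limma (version 3.58.1, R 4.3.3; trend and robust estimation) on log2(TPM + 1), with Benjamini-Hochberg adjustment over all genes tested. Differences on this scale understate genes with low TPM. The fit was tested on simulated data. Positions came from GENCODE M21 (GRCm38), where 23095 of 23150 genes matched by identifier, and promoters from RefSeq (GRCm38.p6), where 55 of 61 histone genes matched. Copies were sought with blastn (version 2.17.0). Protein sequences were not compared.

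Members and lists were chosen with earlier results of these data known. Genes named are H2bc15, the 12 with the highest mean TPM, the 4 with the smallest p in each direction of each tested comparison, the replication-independent linker genes and 2 genes per list and comparison. Alternatives were another pseudocount, no filter, median-ratio scaling, no globin or mitochondrial genes, a replicate block, a fit on all 12 libraries, no robust estimation and leaving out each library. Reads scaled to library size (RPM) and TPM over exon length were added after seeing the data. The RPM setting also used a pseudocount of 0.1 in place of 1, so its results cannot be credited to the read units alone. Summaries used scipy 1.17.1, numpy 2.4.6 and pandas 2.3.3 in python 3.11.15.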

Additional observations from a re-analysis of the deposited data

How the results depend on the processing

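The count of histone genes called in OST against GCs after Sema3E was 10, 7 to 11 with a library left out, and 5 in a fit on all 12 libraries. That after IgG was 3, 0 to 5 with a library left out, 0 under median ratios, without globin and mitochondrial genes, as RPM or over exon length, 1 with a pseudocount of 0.1 or no filter, and 6 in the fit on all 12 libraries. It was 5 without OST IgG replicate 3, 1 without OST IgG replicate 1, and 0 when any other library of that comparison was left out. Those at an unadjusted p under 0.05 after IgG were 13, 8 to 12 with a library left out, 5 under median ratios, without globin and mitochondrial genes or over exon length, and 4 as RPM. The median after IgG, 0.41, was 0.53 with a pseudocount of 0.1, 0.17 under median ratios, 0.22 without globin and mitochondrial genes, 0.14 as RPM, 0.29 over exon length and 0.38 to 0.49 with a library left out. The median after Sema3E, 0.27, was 0.05 without globin and mitochondrial genes and 0.06 to 0.34 with a library left out. In GCs, 9 genes at an unadjusted p under 0.05 became 4 in the fit on all 12 libraries or as RPM and 5 to 11 with a library left out. The median in OST, -0.08, was 0.05 under median ratios and 0.07 as RPM. Summed TPM moved to 1957, 2020, 2250 and 2446 without globin and mitochondrial genes and to 708, 748, 972 and 1026 over exon length, in the order GC IgG, GC Sema3E, OST IgG and OST Sema3E, and OST IgG to 1612 under median ratios. The causes were not tested beyond what each construction changes.

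With the replicate number as a block, 6 histone genes were called in GCs in place of 0 (16 at an unadjusted p under 0.05) and 245 of all genes in place of 10. The 6 were H2ac1, H2ac11, H2ac4, H2bc13, H3c13 and H4c11. After IgG, the block gave 3 calls in OST against GCs, of which 1, H3c13, was also called without it. H2ac24 and H4c8 were gained, and H2ac8 and H2ac11 lost. After Sema3E it gave 15, among them all 10 called without it. No label or method ties replicate numbers to mice, so the numbers were not taken as pairs. Deviations of same-numbered libraries had correlations of 0.341, 0.226 and -0.0728 in GCs. So few values cannot settle whether these libraries share a mouse.

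Few reads limit most genes: 48 of 61 had a mean under 20 reads per library.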
